A study of Mus musculus with 16 samples.

Results

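Complement is a cascade of plasma proteins that tags and lyses microbes, and macrophages make several of its components locally. The 10 genes described here are C1ra and C1s1, C4b, C2, Cfb, C3, C1qa, C1qb, C1qc and Cfp, and they were found by their symbols in the annotation of the array. Of the 10, 9 were measured, among 23410 annotated features of 35557 in all. C3 is not analysed here. In the classical pathway the recognition molecule C1q, built of the A, B and C chains that C1qa, C1qb and C1qc encode, carries the serine proteases C1r and C1s. C1s cleaves C4 and C2, whose fragments form the classical C3 convertase. In the alternative pathway factor B, the product of Cfb, supplies the protease of the C3 convertase, and properdin, the product of Cfp, stabilises it.

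The cells were macrophages grown from mouse bone marrow in DMEM with 10% fetal bovine serum and 10% L-cell conditioned medium. All groups came from H3.3-HA knock-in mice, which carry an HA-tagged histone H3.3, so no wild-type cells were compared. Naive cells were sampled at 0 h of interferon gamma (n = 4 arrays), at 3 h (n = 2) and at 6 h (n = 2), and cells that had been pretreated with interferon likewise (n = 4, 2 and 2). The sources used here do not give the dose, length or recovery of the pretreatment. Total RNA was hybridised to 16 Affymetrix mouse gene 1.0 ST arrays, and the values are log2 intensities. Set 1, named from the numbering in the sample titles, holds 2 arrays of each 0 h group and the 6 h groups, and set 2 holds the other 0 h arrays and the 3 h groups. Differences were taken within a set. No unstimulated cells at 3 or 6 h are analysed here, so interferon and time in culture cannot be told apart. Replicates are not stated to be independent cultures or mice, and p-values therefore reflect the scatter among these arrays alone.

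Array medians lay between 7.15 and 7.23 in set 1 and between 6.89 and 7.0 in set 2. The table has no detection calls, and a mean log2 intensity under 6.5 is called dim here. The 8 macrophage markers, among them Adgre1, Csf1r and Cd68, were all above that limit, with a mean over the list of 12.52 to 12.87 on the arrays. Among them Fcgr1 was called higher in naive cells at 3 h (1.80 ± 0.18) and 6 h (1.54 ± 0.18), in pretreated cells at 6 h (0.75 ± 0.18) and in pretreated against naive cells at 0 h (1.10 ± 0.13), all log2 ± SE. Cd14 was called lower at 6 h, by a log2 change of -0.87 ± 0.23 in naive and -1.06 ± 0.23 in pretreated cells. The mean over the markers was 5.97 to 6.70 for 7 fibroblast genes, 5.66 to 6.46 for 7 neutrophil and progenitor genes, 5.65 to 6.62 for 4 T cell genes, 5.94 to 6.51 for 3 B cell genes, 5.74 to 6.35 for 4 hepatocyte genes and 6.67 to 7.87 for 3 endothelial genes. Of these, Cd79b of the B cell list was called lower in naive cells at 6 h, also against 3 h, and no other was called in any comparison. An unadjusted limma p under 0.05 occurred in 1 of 70 gene and comparison pairs for the fibroblast list, 5 of 30 for B cells, 2 of 70 for neutrophils, 0 of 40 for T cells, 1 of 40 for hepatocytes and 3 of 30 for endothelium. Of the 4 dendritic cell markers 2 moved. In set 1 the mean of the 4 was 6.36 to 6.47 in naive cells at 0 h, 7.73 to 7.77 in naive cells at 6 h and 7.95 to 8.06 in pretreated cells at 6 h, with Clec9a (5.55 at 0 h, 9.99 at 6 h) and Xcr1 (6.54 and 7.65) called higher in naive cells. Flt3 and Zbtb46 changed there by -0.08 ± 0.17 (SE) and -0.12 ± 0.13 and were not called. In set 2 it was 5.93 to 6.02 in naive cells at 0 h, 6.15 to 6.43 in naive cells at 3 h and 6.79 to 6.86 in pretreated cells at 3 h. The part of those cells in the results below was not tested. In RNA of whole cultures, fewer cells of a type and less RNA per cell cannot be told apart.

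Proximal sequences of the C1 protease genes are shown because C1ra and C1s1 lie next to each other and were both called higher after interferon in naive cells, while C1s1 is the member whose 6 h level differed between pretreated and naive cells. RefSeq's table for GRCm38.p6 held promoters, 250 bases before to 50 after the start site, for 5 of the 9 measured members, namely C1ra, C1s1, C1qb, C1qc and Cfp. The C1ra promoter is chr6:124512371-124512670 on the plus strand, and that of the first C1s1 start is chr6:124542310-124542609 on the minus strand. Capitals mark the match to the core of the gamma-activated site, TTCNNNGAA, an element known from promoters that respond to interferon gamma.
C1ra: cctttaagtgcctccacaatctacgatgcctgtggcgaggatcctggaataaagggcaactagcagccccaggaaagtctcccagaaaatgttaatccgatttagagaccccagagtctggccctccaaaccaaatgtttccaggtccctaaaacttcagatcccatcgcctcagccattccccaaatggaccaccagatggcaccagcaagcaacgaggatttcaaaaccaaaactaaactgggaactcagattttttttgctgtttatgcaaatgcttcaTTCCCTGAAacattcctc
C1s1: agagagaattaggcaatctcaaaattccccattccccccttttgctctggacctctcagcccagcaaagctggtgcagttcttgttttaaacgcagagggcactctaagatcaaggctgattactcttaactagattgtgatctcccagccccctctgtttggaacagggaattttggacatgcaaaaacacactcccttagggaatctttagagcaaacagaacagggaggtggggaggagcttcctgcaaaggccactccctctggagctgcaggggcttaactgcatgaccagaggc
The match TTCCCTGAA in C1ra lies 33 to 41 bases after the start site. It was the only match among the 6 start sites of those 5 genes when both strands were searched for TTCNNNGAA and for GAAANNGAA, a core of the interferon-stimulated response element. The first core occurs in 8.29% and the second in 8.55% of all 32817 promoters in the table, so a single match is a description of these letters and not evidence of a site.

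C1ra, which encodes the protease that activates C1s, rose with interferon in naive cells. At 0 h naive arrays read 7.20 and 7.15 in set 1 and 7.20 and 6.92 in set 2, against 8.25 and 8.27 at 3 h and 9.27 and 9.47 at 6 h. The groups did not overlap within either set, and the share of all features separated in this way was not counted. Relative to 0 h of the same set the log2 rise was 1.20 ± 0.14 (SE, limma) at 3 h, or 2.29-fold, with adjusted p = 0.0002. At 6 h the limma estimate was 2.20 ± 0.14, or 4.59-fold, with adjusted p = 8.85e-07. Pretreated cells already stood higher at 0 h, at 7.89 and 8.22 in set 1 and 8.19 and 7.89 in set 2, and read 8.59 and 8.59 at 3 h and 9.17 and 9.17 at 6 h. A further feature of the array is shared by C1ra and C1rb, a near-identical neighbour whose signal cannot be separated from that of C1ra there. It read 8.28 and 8.26 in naive cells at 0 h and 10.56 and 10.54 at 6 h in set 1, and rose by 2.28 ± 0.10 (SE, limma adjusted p = 7.92e-08).

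C1s1, which encodes the C1s protease that cleaves C4 and C2, was dim at 0 h, so no fold is given for it. In set 1 naive arrays read 4.82 and 5.08 at 0 h and 8.02 and 7.51 at 6 h. Pretreated arrays of that set read 4.99 and 5.29 at 0 h and 5.75 and 6.01 at 6 h. Both naive 6 h arrays stood above the limit of 6.5, and all other arrays of both sets below it. In set 2 C1s1 read 3.56 and 3.56 in naive cells at 0 h, 3.77 and 4.08 after pretreatment at 0 h, and 4.83 and 4.46 in naive cells at 3 h. Pretreated cells at 3 h read 4.72 and 4.49. In naive cells the log2 rise was 1.09 ± 0.20 (SE) at 3 h (limma adjusted p = 0.00505) and 2.82 ± 0.20 at 6 h (adjusted p = 1.65e-06). The 3 h call was lost without naive 3 h replicate 1 (adjusted p = 0.0663).

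C4b encodes complement component C4, the first substrate of C1s. Naive arrays of set 1 read 6.47 and 6.59 at 0 h and 8.64 and 9.19 at 6 h, and pretreated arrays 7.46 and 8.0 at 0 h and 8.76 and 9.23 at 6 h. In set 2 naive arrays read 6.15 and 6.31 at 0 h and 7.29 and 7.58 at 3 h, and pretreated arrays 7.12 and 7.22 at 0 h and 7.48 and 7.84 at 3 h. Every stimulated or pretreated array stood above the naive 0 h arrays of its set, and the share of all features with this order was not counted. The naive rise was 1.20 ± 0.23 (SE) at 3 h (limma adjusted p = 0.00682) and 2.38 ± 0.23 at 6 h (adjusted p = 1.69e-05), with no fold given because naive 0 h cells were at the dim limit. The 3 h call was lost when naive 0 h replicate 3 (0.0594) or replicate 2 of the naive 3 h arrays (0.0847) was omitted.

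C2, the gene of the other C1s substrate, was at or near the dim limit in every group, with arrays between 5.96 and 6.68. Its change in naive cells was -0.06 ± 0.14 (SE) at 3 h and 0.08 ± 0.14 at 6 h, with a 95% interval of -0.22 to 0.38 for the latter. None of the 10 comparisons called C2, whereas its chromosomal neighbour Cfb was called in 6. A change of the C2 transcript below this array's range cannot be seen.

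Cfb, the gene of factor B, rose in naive cells. In set 1 naive arrays read 6.88 and 7.31 at 0 h and 10.79 and 11.14 at 6 h. Pretreated arrays of set 1 read 9.18 and 9.47 at 0 h and 10.43 and 10.86 at 6 h. In set 2 the readings were 7.19 and 7.09 in naive cells at 0 h, and 8.33 and 9.14 at 3 h. Pretreated arrays of set 2 read 8.24 and 8.55 at 0 h and 9.16 and 9.61 at 3 h. The pretreated 0 h arrays lay between naive 0 h and naive 6 h in set 1 and overlapped naive 3 h in set 2. The naive rise was 1.59 ± 0.26 (SE) at 3 h, or 3.02-fold (limma adjusted p = 0.00285), and 3.87 ± 0.26 at 6 h, or 14.63-fold (adjusted p = 1.49e-06).

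**Figure D1:**
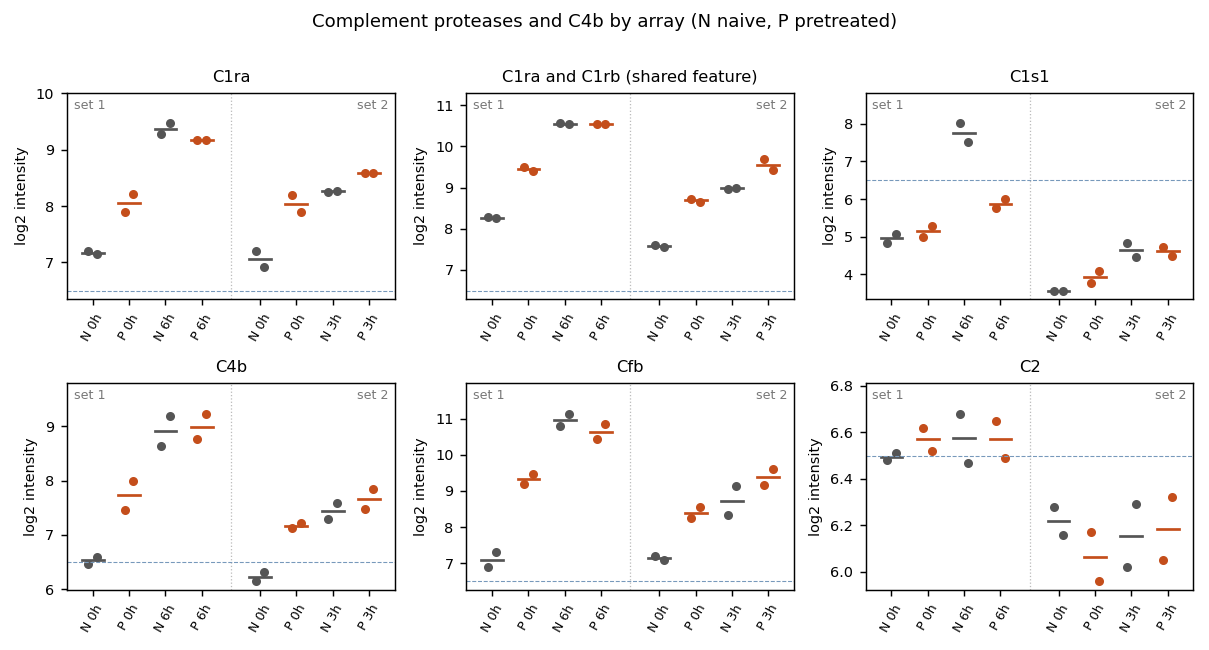
Log2 intensity on each array (points) with the mean of each group of 2 (bars) for C1ra, its feature shared with C1rb, C1s1, C4b, Cfb and C2, with naive cells (N) in grey and pretreated cells (P) in orange at 0, 3 and 6 h in array sets 1 and 2. The dashed line is the dim limit of 6.5, and C1s1 in pretreated cells at 6 h stays below it while both naive 6 h arrays read over 7.5.

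The other members were bright and gave no call. C1qb arrays lay between 13.42 and 13.80, C1qc arrays between 12.95 and 13.57 and Cfp arrays between 12.83 and 13.29 over all 16 arrays, where the maxima of the arrays were 14.25 to 14.43. In naive cells at 6 h the change was 0.08 ± 0.12 (SE) for C1qb, with a 95% interval of -0.19 to 0.34, and 0.12 ± 0.15 for C1qc, with an interval of -0.20 to 0.45. Thus changes of the size seen for Cfb lay outside these intervals, while small ones did not. The nearness of these signals to the top of the scale was not tested for its part in the result. Properdin, Cfp, read 12.95 and 13.23 in naive cells at 0 h and 12.83 and 12.94 at 6 h in set 1, a change of -0.21 ± 0.13 (limma adjusted p = 0.356). Those 2 groups did not overlap, yet the difference did not pass.

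Replicate arrays of C1qa lay far apart. Within each group and set the array with the later number was the higher, 8 of 8 times, by a log2 difference of 0.48 to 1.96. Of all annotated features 3.03% were higher on the later array in all 8 pairs and 3.93% on the earlier one. The order by number was not tested. Naive 0 h arrays read 10.82 and 12.25 in set 1 and 10.24 and 12.20 in set 2. At 6 h naive arrays read 11.82 and 12.30 and pretreated arrays 12.02 and 12.58, and at 3 h naive arrays read 10.63 and 12.14 and pretreated arrays 11.18 and 12.43. Pretreated arrays at 0 h read 11.65 and 12.28 in set 1 and 11.13 and 12.44 in set 2. The groups overlapped within each set. The naive 6 h change was 0.52 ± 0.72 (SE), with a 95% interval of -1.04 to 2.09. The fit has no term for the numbering, so its SE and interval include that offset as scatter. A change of the size seen for C1ra at 3 h lies inside that interval. With the replicate block described below C1qa was not called in naive cells at 6 h either, and its interval in that fit is not given here.

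**Figure D2:**
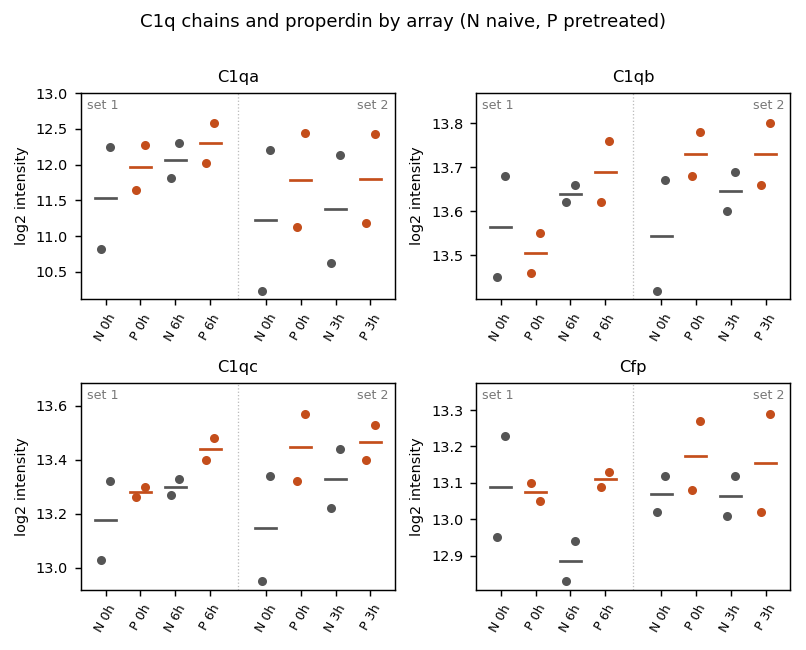
Log2 intensity on each array (points) with the mean of each group of 2 (bars) for C1qa, C1qb, C1qc and properdin (Cfp), with naive cells (N) in grey and pretreated cells (P) in orange in both array sets. The vertical scales differ: C1qa spans 10.24 to 12.58 with its replicates far apart, while C1qb stays within 13.42 to 13.80.

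In naive cells, then, C1ra, C1s1, C4b and Cfb rose, while the C1q chains, C2 and properdin were not called. At 3 h 4 of 9 measured members were called higher and 0 lower, beside 5.33% of all annotated features called in either direction, and the median change was 0.19 over the members and 0.00 over all features. At 6 h C1ra, C1s1, C4b and Cfb were again the 4 called higher and 0 lower, beside 17.3% of all features, with medians of 0.52 and -0.02. The rises at 6 h exceeded those at 3 h by 1.73 ± 0.28 (SE) for C1s1 (limma adjusted p = 0.0106), by 2.28 ± 0.37 for Cfb (0.0119) and by 1.0 ± 0.20 for C1ra (0.0301), 3 of 9 members beside 1.65% of all features, with medians of 0.36 and -0.04. For C4b the excess was 1.18 ± 0.32 (adjusted p = 0.1). C4b was called with an additive set term (limma adjusted p = 0.0423), with no set term (0.0087) and with the replicate block described below (0.00397). It was not called after a further quantile normalization or with a trended and robust variance. In this comparison time and array set cannot be told apart. The C1ra call was lost whichever of the 8 arrays was omitted (adjusted p of 0.0533 to 0.122) and the C1s1 call without naive 3 h replicate 2 (0.0596). For the feature shared by C1ra and C1rb the excess was 0.88 ± 0.15 (SE, limma adjusted p = 0.0126). Its call was kept in 3 of the 8 omissions.

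**Figure D3:**
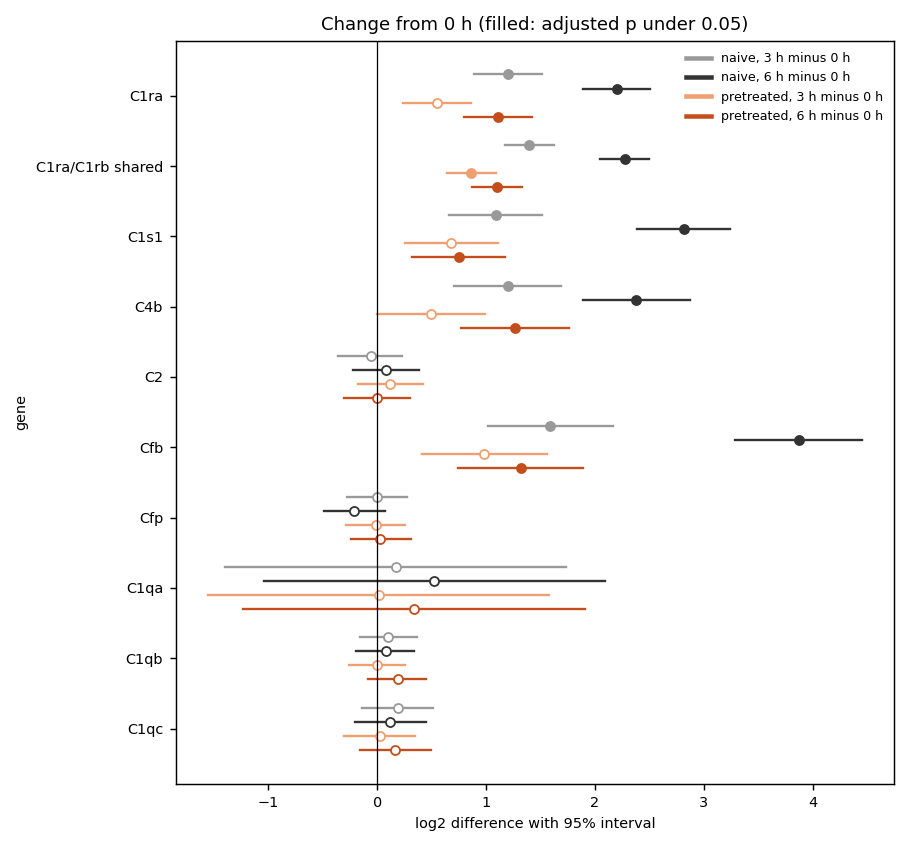
Log2 change from 0 h (points) with 95% intervals (lines) for the measured members and the feature shared by C1ra and C1rb, at 3 h and 6 h in naive cells (greys) and pretreated cells (oranges), filled where the limma adjusted p is under 0.05. In naive cells at 6 h the changes run from -0.21 for Cfp to 3.87 for Cfb, and the intervals of C1qa are the widest.

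Pretreated cells held more C1ra, C4b and Cfb RNA than naive cells before the second exposure, averaged over both sets. The difference at 0 h was 1.74 ± 0.19 (SE) for Cfb, or 3.35-fold (limma adjusted p = 0.000242), 0.93 ± 0.10 for C1ra, or 1.91-fold (0.000253), and 1.07 ± 0.16 for C4b (0.0037). All pretreated arrays of these 3 genes stood above all naive 0 h arrays of the same set, with 2 arrays on each side. The share of all features separated in this way was not counted. Called higher were 3 of 9 members and called lower 0, beside 1.13% of all features called, with medians of 0.27 and 0.01. C1s1 did not pass at 0 h, at 0.27 ± 0.14 with a 95% interval of -0.03 to 0.58 (limma adjusted p = 0.714). The recognition chains, C2 and Cfp differed by -0.04 (C2) to 0.50 (C1qa), none of them called. The mean of the dendritic cell markers was also higher at 0 h in pretreated cells, at 6.84 to 7.05 against 6.36 to 6.47 in set 1 and 6.34 to 6.38 against 5.93 to 6.02 in set 2, with Clec9a called higher by 1.67 ± 0.28 (limma adjusted p = 0.00836), and its part in the result was not tested. Within set 1 the difference was 2.23 for Cfb (limma adjusted p = 0.00708 in a fit of that set alone), 0.88 for C1ra (0.0539) and 1.20 for C4b (0.171), and within set 2 it was 1.26 (0.184), 0.98 (0.0353) and 0.93 (0.0781). The direction was the same in both sets, and of these 3 genes 1 passed in each set alone. For the feature shared by C1ra and C1rb the difference was 1.14 ± 0.07 (SE, limma adjusted p = 4.16e-06). It was also called in set 1 alone (limma adjusted p = 0.00497) and set 2 alone (0.00905).

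In pretreated cells the changes were taken from their own 0 h level. At 3 h 0 of 9 members were called in the limma fit, beside 2.70% of all features, although 4 had an unadjusted p under 0.05, and the median change was 0.12 over the members and 0.00 over all features. Those changes were 0.98 ± 0.26 (SE) for Cfb (adjusted p = 0.0799), 0.68 ± 0.20 for C1s1 (0.103), 0.55 ± 0.14 for C1ra (0.0682) and 0.49 ± 0.23 for C4b (0.381). With an additive set term C1ra (adjusted p = 0.0207) and C1s1 (0.0337) were called in the limma fit, and after a further quantile normalization C1ra (0.0489). Calls of C1ra, C4b and Cfb with a replicate block are given with the other alternatives below. The feature shared by C1ra and C1rb was called without any such change, at 0.86 ± 0.10 (limma adjusted p = 0.000691). At 6 h 4 of 9 were called higher and 0 lower, beside 5.44% of all features, with medians of 0.34 and -0.03. C1ra rose by 1.11 ± 0.14 (limma adjusted p = 0.000603), C4b by 1.27 ± 0.23 (0.00538), Cfb by 1.32 ± 0.26 (0.0113) and C1s1 by 0.75 ± 0.20 (0.0458). The call was kept with any of the 4 arrays left out for C1ra. It was lost for C1s1 with any of them (adjusted p up to 0.323, without pretreated 6 h replicate 2), and for C4b and Cfb without pretreated 0 h replicate 1 (0.0502 and 0.081) or pretreated 6 h replicate 2 (0.075 and 0.126).

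At 6 h the levels of naive and pretreated cells were called different for C1s1 and not for C1ra, C4b or Cfb. C1s1 was lower in pretreated cells by a log2 difference of -1.88 ± 0.20 (SE), with a 95% interval of -2.31 to -1.46 and limma adjusted p = 0.00216. Its pretreated 6 h arrays were under the dim limit, so the size of this difference is not exact. It was the only member of 9 called at that time, and 0.662% of all features were called, with medians of 0.05 over the members and 0.02 over all features. The call was kept with each of the 4 arrays of these groups left out (adjusted p up to 0.0319). The difference was 0.08 ± 0.23 for C4b (95% interval -0.41 to 0.58), -0.32 ± 0.26 for Cfb (-0.90 to 0.25) and -0.20 ± 0.14 for C1ra (-0.51 to 0.11), with none of them called. At 3 h 0 of 9 members were called by limma, with 2 at an unadjusted p under 0.05, beside 0.0128% of all features and with medians of 0.14 and 0.00. Cfb differed there by 0.65 ± 0.26, C1ra by 0.33 ± 0.14 and C1s1 by -0.04 ± 0.20, each with adjusted p = 1.

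**Figure D4:**
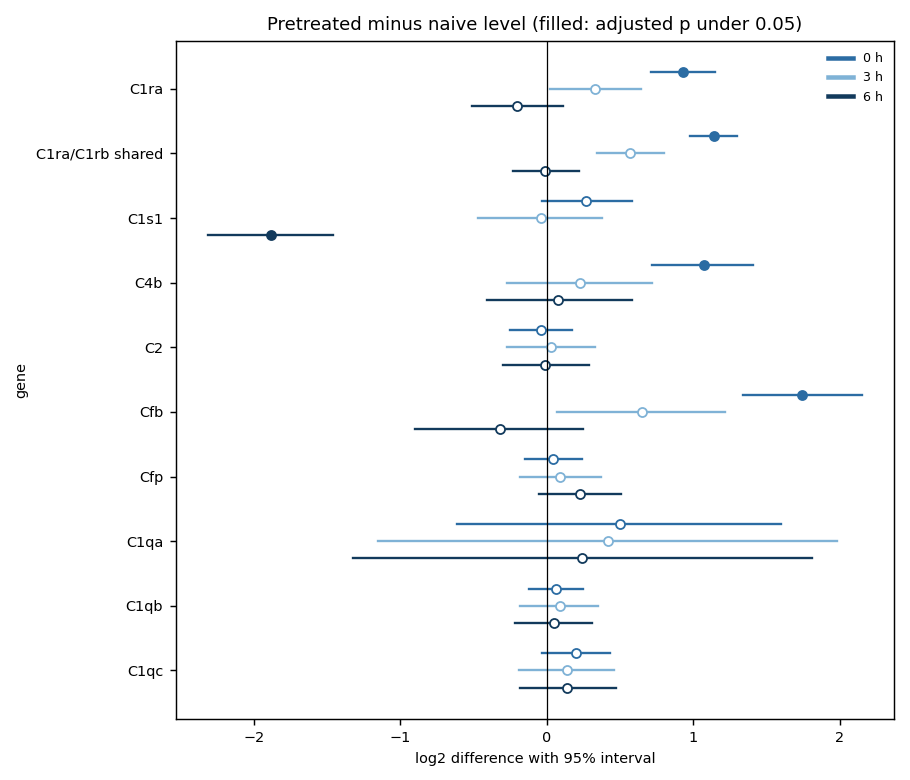
Log2 level in pretreated minus naive cells (points) with 95% intervals (lines) at 0, 3 and 6 h for the measured members and the feature shared by C1ra and C1rb, filled where the limma adjusted p is under 0.05. C1ra, C4b and Cfb lie above 0 at 0 h, and C1s1 at 6 h is the filled point below 0, at -1.88.

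The change from 0 h to 6 h was smaller in pretreated cells than in naive cells for Cfb and C1s1, but with different levels behind it. For Cfb the difference of the responses was -2.55 ± 0.37 (SE, limma adjusted p = 0.0179, 95% interval -3.37 to -1.74), with 0 h levels that differed and 6 h levels that were not called different. For C1s1 it was -2.07 ± 0.28 (adjusted p = 0.0113, 95% interval -2.67 to -1.47), with 0 h levels not called different and 6 h levels that differed, and with dim values in all but the naive 6 h arrays. These were 0 of 9 members called higher and 2 lower, beside 0.175% of all features, with medians of -0.18 and -0.01. C1ra was called lower with an additive set term (limma adjusted p = 0.00679) and after a further quantile normalization (0.0472). With the replicate block described below, C1ra (limma adjusted p = 0.019) and C4b (0.0169) were called lower. With none of these changes C1ra, at -1.09 ± 0.20 (limma adjusted p = 0.0608), and C4b, at -1.11 ± 0.32 (0.234), did not pass. The feature shared by C1ra and C1rb did, at -1.18 ± 0.15 (adjusted p = 0.00777), though not without pretreated 6 h replicate 1 (0.0575) or 2 (0.0521). With an array omitted the difference stayed between -2.32 and -1.82 for C1s1 and between -2.77 and -2.34 for Cfb, but both calls were lost on omitting naive 0 h replicate 1 (0.0501 for C1s1 and 0.056 for Cfb), the first naive 6 h array (0.0513 and 0.0554), pretreated 0 h replicate 2 (0.0725 and 0.0977) or pretreated 6 h replicate 1 (0.0788 and 0.107), and that of Cfb also without pretreated 6 h replicate 2 (0.0521). C1ra was called without pretreated 0 h replicate 1 (0.0341). At 3 h 0 of 9 responses were called different by limma, with 2 at an unadjusted p under 0.05, beside 0.150% of all features and with medians of -0.16 and 0.00. The 0 h arrays enter both the 0 h difference and these differences of responses, so the comparisons share them.

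Among close relatives of the members, 3 of 4 listed were measured. C1rl, a protease related to C1r, rose in each of the 4 changes from 0 h, by 0.94 ± 0.12 (SE) in naive cells at 3 h (limma adjusted p = 0.000307), and by 1.41 ± 0.12 at 6 h (6.05e-06). Its rises in pretreated cells were 0.96 ± 0.12 at 3 h (0.000791) and 1.08 ± 0.12 at 6 h (0.000246). At 0 h C1rl did not differ between pretreated and naive cells beyond its error, at 0.07 ± 0.08, where C1ra stood at 0.93. The difference between these genes was not tested. C1s2 and C4a, the near-identical relatives of C1s1 and C4b, rose in naive cells at 6 h by 0.89 ± 0.17 (limma adjusted p = 0.00289) and 0.62 ± 0.15 (0.0125), from dim levels, and whether their probes also read C1s1 and C4b RNA was not tested. The C4a call was lost when naive 0 h replicate 1 (0.0979) or replicate 2 of the naive 6 h arrays (0.131) was omitted. Over the 3 relatives the median change was 0.60 at 3 h and 0.89 at 6 h in naive cells.

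Few other genes of the cascade were called. Of 8 measured lectin pathway genes, such as Mbl1, Mbl2 and Masp1, 0 were called by limma in any of the 10 comparisons, in which 0.0128% to 17.3% of all features were called, with an unadjusted p under 0.05 in 3 of 80 gene and comparison pairs. Of 7 terminal pathway genes, which encode C5 and the pore-forming components, 0 were called in the same comparisons, with 2 of 70 pairs at an unadjusted p under 0.05. Of 15 measured regulators only Serping1, which encodes the inhibitor of C1r and C1s, was called, in naive cells at 6 h, at 0.77 ± 0.14 (SE, limma adjusted p = 0.0021), where 17.3% of all features were called. Over the regulators 8 of 150 pairs had an unadjusted p under 0.05. As means over all arrays, 3 of 8 lectin genes, 6 of 7 terminal genes and 12 of 15 regulators were dim. Serping1 was dim in naive cells at 0 h, at 6.05 in set 1 and 5.58 in set 2. Changes of such transcripts below this array's range cannot be seen. The 6 h change of Serping1 in pretreated cells was 0.25 ± 0.14, and the difference of the 2 responses, -0.52 ± 0.20, did not pass (limma adjusted p = 0.406). In naive cells at 6 h the median change was 0.04 over the lectin genes, -0.09 over the terminal genes and 0.01 over the regulators, against -0.02 over all features.

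All calls among the receptors were decreases. Of 9 measured, 0 were called higher and 2 lower in naive cells at 3 h, and 0 higher and 4 lower at 6 h, beside the 5.33% and 17.3% of all features called. The median changes were -0.16 and -0.40, against 0.00 and -0.02 over all features. C5ar2, the second receptor of the anaphylatoxin C5a, read 10.18 to 10.64 in naive cells at 0 h and 7.99 to 8.54 at 3 h in set 2, and 10.02 to 10.49 at 0 h and 8.39 to 8.68 at 6 h in set 1. It fell by 2.14 ± 0.27 (SE) at 3 h (limma adjusted p = 0.000328) and by 1.72 ± 0.27 at 6 h (0.000746). In pretreated cells it fell by 1.46 ± 0.27 at 3 h (0.0116) and by 1.16 ± 0.27 at 6 h (0.0251), and the differences of the responses, 0.68 ± 0.38 (adjusted p = 1) and 0.56 ± 0.38 (0.77), did not pass. The naive calls of C5ar2 were kept with each array left out, while the pretreated 3 h call was lost without pretreated 0 h replicate 4 (0.135) or pretreated 3 h replicate 1 (0.103), and the 6 h call with any of 4 (up to 0.206).

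C5ar1, the signalling C5a receptor, fell by 1.15 ± 0.30 (SE) in naive cells at 3 h (limma adjusted p = 0.0435), by 1.07 ± 0.30 at 6 h (0.0261) and by 1.17 ± 0.30 in pretreated cells at 6 h (0.0406). Each of these calls depended on single arrays, with an adjusted p of up to 0.343 without naive 3 h replicate 1, up to 0.203 when the second naive 6 h array was omitted and 0.209 with an array of the pretreated groups left out. C3ar1, the C3a receptor, fell by 0.43 ± 0.12 (limma adjusted p = 0.021) and Itgb2, the common chain of complement receptors 3 and 4, by 0.34 ± 0.09 (0.0248) in naive cells at 6 h. Both were lost with single arrays left out (up to 0.151 and 0.137).

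**Figure D5:**
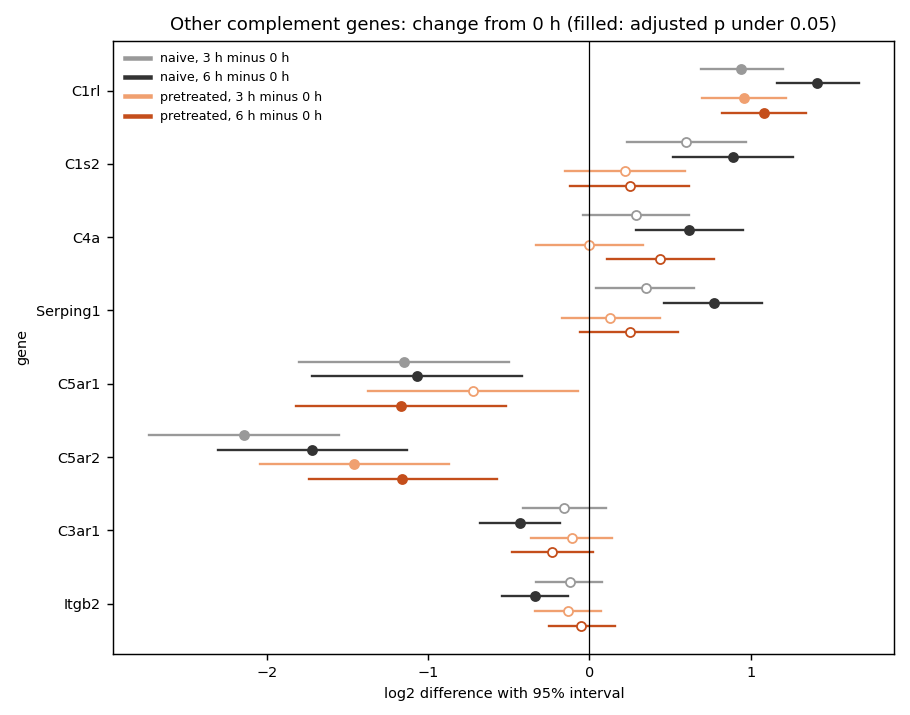
Log2 change from 0 h (points) with 95% intervals (lines) for the other complement genes called in at least 1 change from 0 h, at 3 h and 6 h in naive cells (greys) and pretreated cells (oranges), filled where the limma adjusted p is under 0.05. C1rl is filled to the right of 0 in all 4 and C5ar2 to the left of 0 in all 4.

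The courses of the 4 members that moved are given over the 6 sampled conditions as log2 differences from naive 0 h cells of the same set. C1ra was at 0.88 and 0.98 in pretreated cells at 0 h (sets 1 and 2), 1.20 and 1.53 in naive and pretreated cells at 3 h, and 2.20 and 2.0 at 6 h. C4b ran at 1.20, 0.93, 1.20, 1.43, 2.38 and 2.47 in the same order. Cfb stood at 2.23, 1.26, 1.59, 2.24, 3.87 and 3.55, and C1s1 at 0.19, 0.36, 1.09, 1.04, 2.82 and 0.93. The differences between these courses were not tested.

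Likeness to other genes was measured as the root mean square of the 6 log2 differences between 2 genes, over 13101 genes. Nearest to C1ra were Mlkl (0.14), Aig1 (0.17) and Helz2 (0.22), and nearest to C4b were Aig1 (0.19), Ccl2 (0.19) and Cst7 (0.23). C1s1 lay nearest to Nfkbie (0.20), Mir155 (0.22) and Gpr132 (0.25). For Cfb the nearest genes, Bst1 (0.38), Plaat3 (0.48) and Ciita (0.55), were farther away. These 6 values rest on 16 arrays and share their 0 h controls, and they describe likeness only.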

How the data were processed

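RNA of macrophages grown from mouse bone marrow was measured on 16 1-colour Affymetrix mouse gene 1.0 ST arrays in 6 groups, with 2 arrays per group and set, and their number limits the precision. The values, on a log2 intensity scale, are used as the authors deposited them, and RNA was labelled with biotin per the labels' protocols. The sources used here do not give the background correction, normalization, summary method or genome build. Medians and minima (2.84 to 2.94 in set 1, 2.13 to 2.22 in set 2) differed between the sets, so differences were taken within a set. No arrays were identical, and replicate pairs correlated at 0.9812 to 0.9930.

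Gene names are those of GEO's platform annotation, possibly outdated. Of 35557 features 21789 have 1 symbol and 1621 several. A limma fit (version 3.58.1, R 4.3.3) of the values as deposited gave 1 mean to each of 8 cells of group within set. Residual degrees of freedom were 8 and prior ones 4.14. P-values of 10 contrasts were adjusted by Benjamini-Hochberg over all 23410 annotated features, and called means adjusted p under 0.05. The fitting code was tested on simulated data. The other pathway genes named are those called from lists. Where a member has several features the one with the highest mean was to stand for it. C1ra departs from this: its own feature stands for it, because the brighter one is shared with C1rb. With the shared feature, 1 member would be called in pretreated cells at 3 h and 3 in the 6 h difference of responses. The members and lists were chosen with earlier results of these data known. Alternatives were other filters, fits, array sets, normalization and left-out arrays. Some other listed genes, Cfd and Cpb2 among them, are not analysed here. Figures were drawn with matplotlib 3.10.9, numpy 2.4.6 and pandas 2.3.3 in Python 3.11.15.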

Additional observations from a re-analysis of the deposited data

Results flagged for a closer look

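Some responses differed between conditions under a test of the difference itself. The change from 0 h to 6 h was smaller in pretreated than in naive cells, by a log2 difference of -2.07 for C1s1 and -2.55 for Cfb. In naive cells the change at 6 h exceeded that at 3 h by 1.0 for C1ra, 1.73 for C1s1 and 2.28 for Cfb, where time and array set cannot be told apart. Omitting single arrays lost each of these calls except the last, that of Cfb for 6 h against 3 h. All C1s1 arrays but the naive 6 h ones were dim.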

How the results depend on the processing

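Over the 10 comparisons no called member changed direction under any alternative. Of 21 called pairs of member and comparison, 21 of 21 were kept with 1 feature per gene, with an additive set term, with a trended and robust variance and after a further quantile normalization, 19 of 21 with all features tested, 16 of 21 with no set term, 10 of 14 with set 1 alone, 5 of 7 with set 2 alone and 15 of 15 among features with a mean of at least 6.5. The number of members called in the 6 h difference of responses went from 2 to 1 with set 1 alone, 1 of 7 with the mean filter, which removes C1s1 and C2, and 0 with no set term. That number rose to 3 with an additive set term and to 3 after quantile normalization, with C1ra added in both. In pretreated cells at 3 h it went from 0 to 2 with an additive set term and to 1 after quantile normalization. For pretreated against naive cells it went from 3 at 0 h to 1 with set 1 alone and 1 with set 2 alone, and from 1 at 6 h to 0 with the mean filter and 0 with no set term. The cause was not tested, except that the mean filter removes C1s1. With each array left out in turn the counts ranged from 3 to 4 in naive cells at 3 h, 4 to 4 at 6 h and 1 to 2 for 6 h against 3 h, from 0 to 0 and 1 to 3 in pretreated cells at 3 h and 6 h, 3 to 3, 0 to 0 and 1 to 1 for pretreated against naive cells at 0, 3 and 6 h, and 0 to 0 at 3 h and 0 to 3 at 6 h when responses were compared. The sample titles number 8 arrays per set, with a replicate of each group among numbers 1 to 4 and the other among 5 to 8. Arrays of the same 4 deviated together in 11 of 12 pairs of groups with a correlation over 0.1 (0.067 to 0.675), which fell short of the rule that every pair exceed 0.1. With these 4 as a replicate block, 21 of 21 called pairs were kept. In the 6 h difference of responses 4 members were then called, with C1ra (limma adjusted p = 0.019) and C4b (0.0169) added. For 6 h against 3 h in naive cells 4 were called, with C4b added (limma adjusted p = 0.00397). In pretreated cells at 3 h 3 were called, namely C1ra (limma adjusted p = 0.0271), C4b (0.04) and Cfb (0.00562). The difference of naive responses at 6 h and 3 h could not be fitted in a single set. Dim signals limit what could be seen. C1s1 was dim in all but the naive 6 h arrays, and C2 was at or near the limit in every group. C4b was dim in naive 0 h cells of set 2, at 6.23, and most terminal genes and regulators were dim as well.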

Other observations

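Replicate levels of the C1q chains differed with the place of the array in the numbering of its set. Within each of the 8 cells of group and set, C1qa was higher on the array numbered 5 to 8 than on that numbered 1 to 4, 8 of 8 times, by a log2 difference of 0.48 to 1.96 with a median of 1.28. C1qb and C1qc were also higher there in 8 of 8 pairs, with medians of 0.12 and 0.17, as was C4b, with a median of 0.33, and Cfb in 7 of 8, with a median of 0.39. Over all annotated features 3.03% were higher on the later array in all 8 pairs and 3.93% on the earlier one. The sources used here do not say what these numbers stand for.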
